A study of Mus musculus with 6 samples.

Results

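The arginine and polyamine metabolism genes described here are 10 genes, chosen by name: Arg1, Arg2, Nos2, Slc7a1, Slc7a2, Ass1, Asl, Odc1, Srm and Oat. The transcript accession of each probe named 20018 gene symbols on the array, and all 10 genes were among them, with 14 probes that passed. All 10 passed the filter on dim signal, so none is missing from the 15736 genes tested. The study profiled messenger RNA with 1-colour Agilent arrays in macrophages grown from the bone marrow of Bach1 knockout (KO) mice, labelled 947, 948 and 949, and of wild-type (WT) mice, labelled 1, 2 and 3. Bach1 is a heme-binding transcriptional repressor, and the title of the study places it in heme and iron homeostasis. All mice were C57BL/6 animals of 11 weeks, 2 labelled male and 1 labelled female in each genotype, with KO 949 and WT 3 as the females. Each mouse gave 1 array. Marrow cells of both genotypes were kept for 5 days in serum-containing medium with GM-CSF, the granulocyte-macrophage colony-stimulating factor, at 10 ng/mL, so the factor was present in every culture. The construction of the Bach1 allele was not given in the sources used here.

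Macrophages take up arginine through cationic amino acid transporters and use it along competing routes. Arginases split it into ornithine and urea, nitric oxide synthases oxidise it to nitric oxide and citrulline, and citrulline is turned back into arginine by argininosuccinate synthase and lyase. Ornithine feeds polyamine synthesis through ornithine decarboxylase and spermidine synthase, or proline synthesis through ornithine aminotransferase. Arginase 1 is known as a mark of alternatively activated mouse macrophages, and inducible nitric oxide synthase as a mark of classically activated ones.

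Each level is a log2 signal minus the log2 of its array's 75th percentile, and differences are KO minus WT on that scale. The share of spots well above background ran from 62.5% to 65.1% on the KO arrays and from 70.3% to 73.2% on the WT arrays, and no spot was saturated. KO 948 and 949 lay on 1 slide, and KO 947 lay with WT 1, 2 and 3 on another, so KO 947 alone carries the comparison within a slide. A difference given with slide as a blocking factor is therefore that of KO 947 from the WT mean. Of the 15736 genes, 180 were higher and 357 lower in KO at an adjusted p under 0.05 with limma. Scaled to the array median instead, 384 were higher and 230 lower, and the median difference of all genes was 0.21 in place of -0.01. The Bach1 probe differed by -0.54 ± 0.24 (SE, n = 3 mice per genotype, adjusted p = 0.262). It lies at an unstated place relative to the deleted part, so it does not check the labels. Hmox1, a known Bach1 target, rose by 2.14 ± 0.25 (adjusted p = 0.0114), and differed by 2.10 without passing when slide was a blocking factor (adjusted p = 0.0739).

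The KO cultures had far more transcript of Arg1, more of the cationic amino acid transporter gene Slc7a2 and less of Arg2 than the WT cultures. The measured fold was 81.2 for Arg1, a size that is uncertain because 1 WT array was not well above background. Slc7a2 was 2.65-fold higher in KO, and Arg2 was 3.26-fold lower. The other 7 genes, which cover the nitric oxide route, citrulline recycling, the second transporter, polyamine synthesis and the proline route, did not pass the limma test. The 3 calls among 10 genes stand against 3.41% of all genes tested, and the genes were listed with earlier results of these data known. By direction, 2 of the 10 rose against a background of 1.14%, and 1 fell against 2.27%. The genotypes did not overlap in 3 of the 10 genes, where they did not overlap in 26.9% of all genes. An unadjusted p under 0.05 was found for 3 of the 10 genes and for 20.4% of all genes (3214 of 15736). The median difference of the 10 genes was 0.18, and that of all genes -0.01. In bulk RNA, more cells of a type and more RNA per cell cannot be told apart, and this holds for every difference given here.

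**Figure D1:**
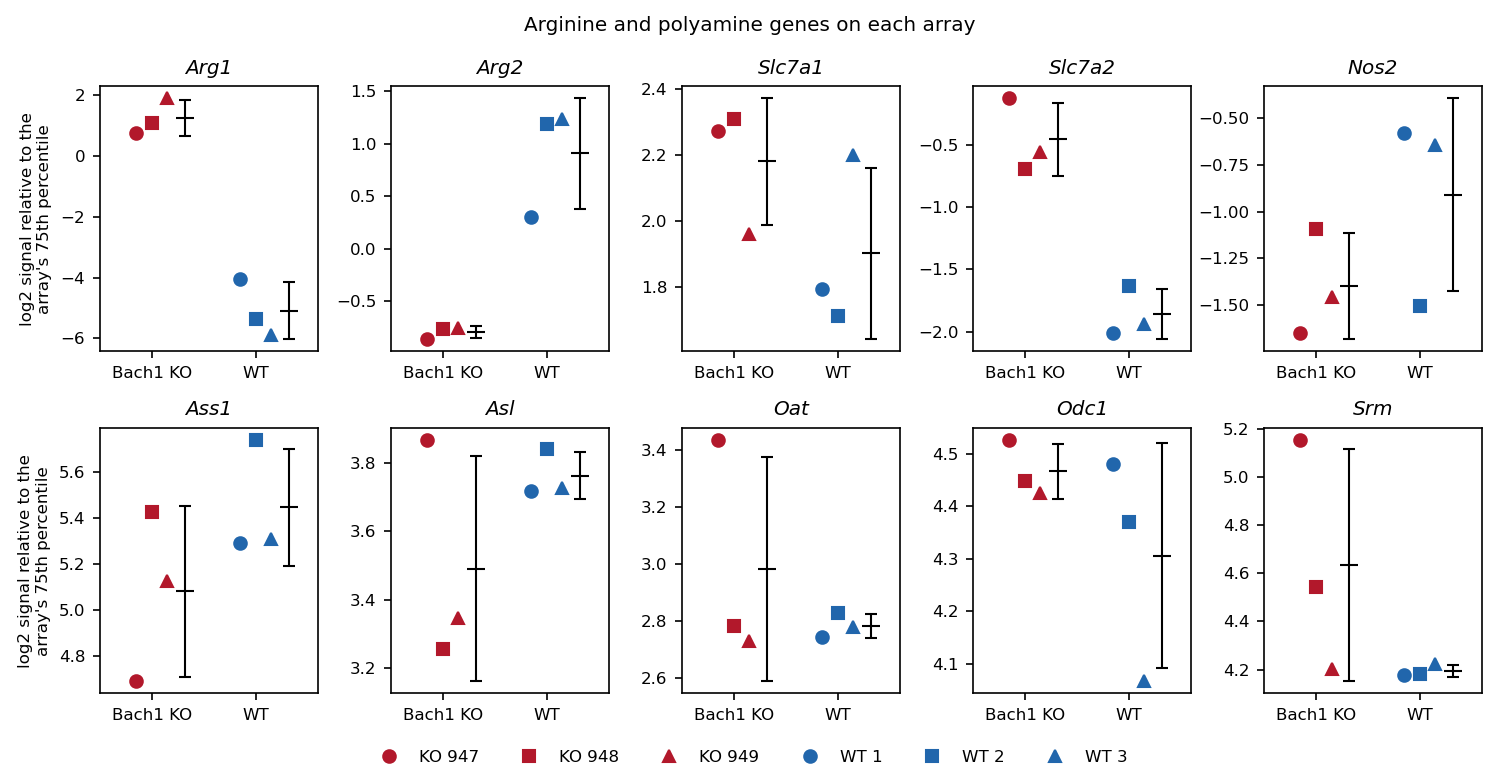
Each panel shows 1 gene, with its log2 signal relative to the array's 75th percentile on the vertical axis, each mouse as a symbol, and the mean ± SD of the 3 mice beside it. The panels have separate axes. Arg1 and Slc7a2 lie higher on all 3 KO arrays than on any WT array, Arg2 lies lower on all 3, and in the other 7 panels the genotypes overlap.

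Arg1 encodes arginase 1, the cytosolic arginase. Its single probe read 0.76, 1.09 and 1.90 on KO 947, 948 and 949, and -4.05, -5.35 and -5.88 on WT 1, 2 and 3. The signal was well above background on all KO arrays but on WT 1 and 2 only, and WT 3 lay below its array's lowest probe well above background (-5.76). Every KO array therefore stood clear of the WT arrays, which sat near the limit of detection. The means were 1.25 ± 0.59 in KO and -5.09 ± 0.94 in WT (SD, n = 3 each). The log2 difference was 6.34 ± 0.51 (SE, adjusted p = 0.0093 with limma). Its 95% interval ran from 5.14 to 7.55, or from 35.2 to 187 as a fold. The interval takes the WT values as measured, so it does not cover the uncertainty of the WT level near background. The difference was the highest of all 15736 genes. With normexp background correction and quantile normalization the log2 difference was 5.02 (adjusted p = 0.00265 with limma), below the lower limit of that interval. With slide as a blocking factor it was 5.85 (adjusted p = 0.0471), a setting in which 0.534% of all genes passed, and on the slide with both genotypes alone the same 5.85 did not pass (adjusted p = 0.0635). No other alternative ended the call, and leaving out 1 array at a time gave 5.95 to 6.86.

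Within each genotype the female mouse held an extreme Arg1 value, the highest in KO (KO 949) and the lowest in WT (WT 3). The difference between genotypes was larger by 2.15 ± 0.79 in females than in males (SE). This interaction rested on 1 female per genotype and did not pass after adjustment over all genes with limma (adjusted p = 0.670, unadjusted p = 0.0386). The WT 3 value was not well above background, so its size is uncertain, and KO 949 lay on the slide without WT arrays. No other of the 10 genes had an unadjusted interaction p under 0.05, and none passed for sex itself.

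Arg2 encodes arginase 2, the mitochondrial arginase, and its transcript went the other way. The KO arrays 947, 948 and 949 read -0.86, -0.76 and -0.75, and WT 1, 2 and 3 read 0.30, 1.19 and 1.23. The KO values were tightly grouped, with WT 1 the lowest WT array yet above all of them. The means were -0.79 ± 0.06 in KO and 0.91 ± 0.53 in WT (SD, n = 3 each), a difference of -1.70 ± 0.27 (SE, adjusted p = 0.0290 with limma). Both arginase genes therefore passed the test, with opposite signs. The Arg2 call was the less stable of the pair. Its size stayed between -2.01 and -1.49 in all alternatives, but it did not pass without WT 2 (-1.56, adjusted p = 0.0919), WT 3 (-1.54, 0.0731), KO 948 (-1.72, 0.0940) or KO 949 (-1.72, 0.0777). It also missed the threshold with slide as a blocking factor (-1.77, adjusted p = 0.119), and narrowly with scaling to the array median (-1.49, adjusted p = 0.0502).

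Slc7a2 encodes the cationic amino acid transporter CAT2, which is known to be inducible in activated mouse macrophages and to supply their arginine. It read -0.12, -0.69 and -0.55 on KO 947, 948 and 949, and -2.01, -1.63 and -1.94 on WT 1, 2 and 3. The genotypes did not overlap, and KO 947 was the highest array. The means were -0.45 ± 0.30 in KO and -1.86 ± 0.20 in WT (SD, n = 3 each), a difference of 1.41 ± 0.20 (SE, adjusted p = 0.0226 with limma). With slide as a blocking factor, where KO 947 alone stands against the WT arrays, the difference was 1.74 ± 0.22 and just missed the threshold (adjusted p = 0.0528). Leaving out any array but KO 947 also ended the call, with differences of 1.33 without WT 1, 1.52 without WT 2, 1.37 without WT 3, 1.52 without KO 948 and 1.46 without KO 949 (adjusted p from 0.0566 to 0.0955).

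Slc7a1 encodes CAT1, the transporter found in most cell types. Its levels were 2.27, 2.31 and 1.96 on KO 947, 948 and 949, and 1.79, 1.71 and 2.20 on WT 1, 2 and 3. WT 3 lay above KO 949, so the genotypes overlapped. The difference was 0.28 ± 0.19 (SE, adjusted p = 0.462), with a 95% interval from -0.18 to 0.73. For Slc7a2 the interval ran from 0.92 to 1.89. The difference between the transporters' responses was not itself tested.

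**Figure D2:**
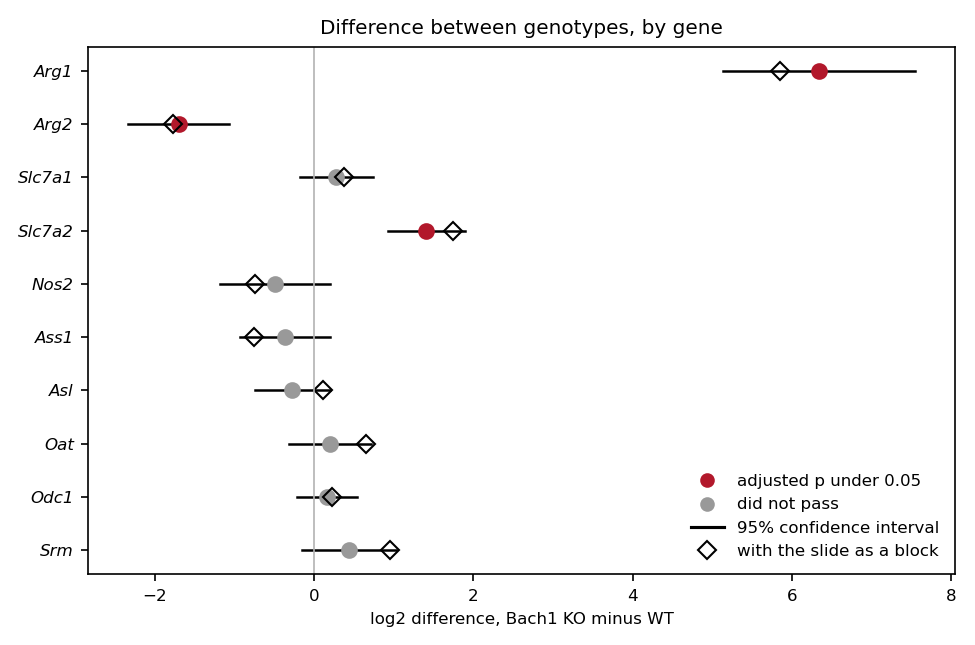
Points give the log2 difference, Bach1 KO minus WT, of each gene, with the 95% confidence interval of the limma fit as a line. Filled red points passed at an adjusted p under 0.05, grey ones did not, and open diamonds give the difference with slide as a blocking factor. The intervals of Arg1, Arg2 and Slc7a2 exclude 0 and those of the other 7 genes include it.

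Nos2 encodes inducible nitric oxide synthase, which competes with the arginases for arginine. It read -1.65, -1.09 and -1.46 on KO 947, 948 and 949, and -0.58, -1.50 and -0.65 on WT 1, 2 and 3. WT 2 fell within the KO range and the other WT arrays lay above it. The difference was -0.49 ± 0.29 (SE, adjusted p = 0.394), with a 95% interval from -1.18 to 0.20. Without WT 2 the difference was -0.79 and still did not pass (adjusted p = 0.163).

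Ass1 and Asl encode argininosuccinate synthase and argininosuccinate lyase, which rebuild arginine from citrulline. Ass1 read 4.69, 5.43 and 5.12 on KO 947, 948 and 949, and 5.29, 5.74 and 5.31 on WT 1, 2 and 3. The ranges overlapped, and the difference was -0.37 ± 0.24 (SE, adjusted p = 0.433). It was -0.76 with slide as a blocking factor, -0.22 without WT 2 and -0.17 without KO 947, and passed in none of these. A second Ass1 probe gave -0.29. Asl read 3.87, 3.26 and 3.35 on the KO arrays in the same order, and 3.72, 3.84 and 3.73 on the WT arrays. KO 947 was the highest of the 6 arrays and the other KO arrays the lowest. Its difference was -0.27 ± 0.20 (SE, adjusted p = 0.484), and 0.11 with slide as a blocking factor, so no direction can be given for Asl.

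Ornithine, the product of arginase, is used by the enzymes encoded by Odc1 and Oat, while Srm encodes a later enzyme of polyamine synthesis. Odc1, which encodes ornithine decarboxylase, the rate-limiting enzyme of polyamine synthesis, read 4.53, 4.45 and 4.43 on KO 947, 948 and 949, and 4.48, 4.37 and 4.07 on WT 1, 2 and 3. The difference was 0.16 ± 0.16 (SE, adjusted p = 0.620), with a 95% interval from -0.22 to 0.54. Its 2 dimmer probes gave 0.44 and 0.34, and neither passed in a fit of each probe on its own.

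Srm, which encodes spermidine synthase, read 5.15, 4.54 and 4.20 on KO 947, 948 and 949, and 4.18, 4.18 and 4.22 on WT 1, 2 and 3. The WT arrays were nearly equal (SD 0.025) while the KO arrays spread over a SD of 0.48, with KO 947 at the top and KO 949 at the WT level. The difference was 0.44 ± 0.25 (SE, adjusted p = 0.374), 0.96 with slide as a blocking factor (adjusted p = 0.109) and 0.18 without KO 947. On the dimmer Srm probe the KO arrays 947, 948 and 949 read 4.45, 3.90 and 3.55, and the WT arrays 3.42, 3.48 and 3.45. There the genotypes did not overlap, with a difference of 0.52 (adjusted p = 0.329 over all probes).

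Oat, which encodes the mitochondrial ornithine aminotransferase, showed the same order among KO mice. It read 3.43, 2.78 and 2.73 on KO 947, 948 and 949, and 2.74, 2.83 and 2.78 on WT 1, 2 and 3. Only KO 947 stood apart. The difference was 0.20 ± 0.22 (SE, adjusted p = 0.652), 0.65 with slide as a blocking factor and -0.028 without KO 947. KO 947 was thus the highest KO array for Slc7a2, Asl, Odc1, Srm and Oat, and the lowest for Arg1, Arg2, Nos2 and Ass1. It is also the 1 KO array on the slide that holds the WT arrays, so mouse and slide cannot be told apart here.

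**Figure D3:**
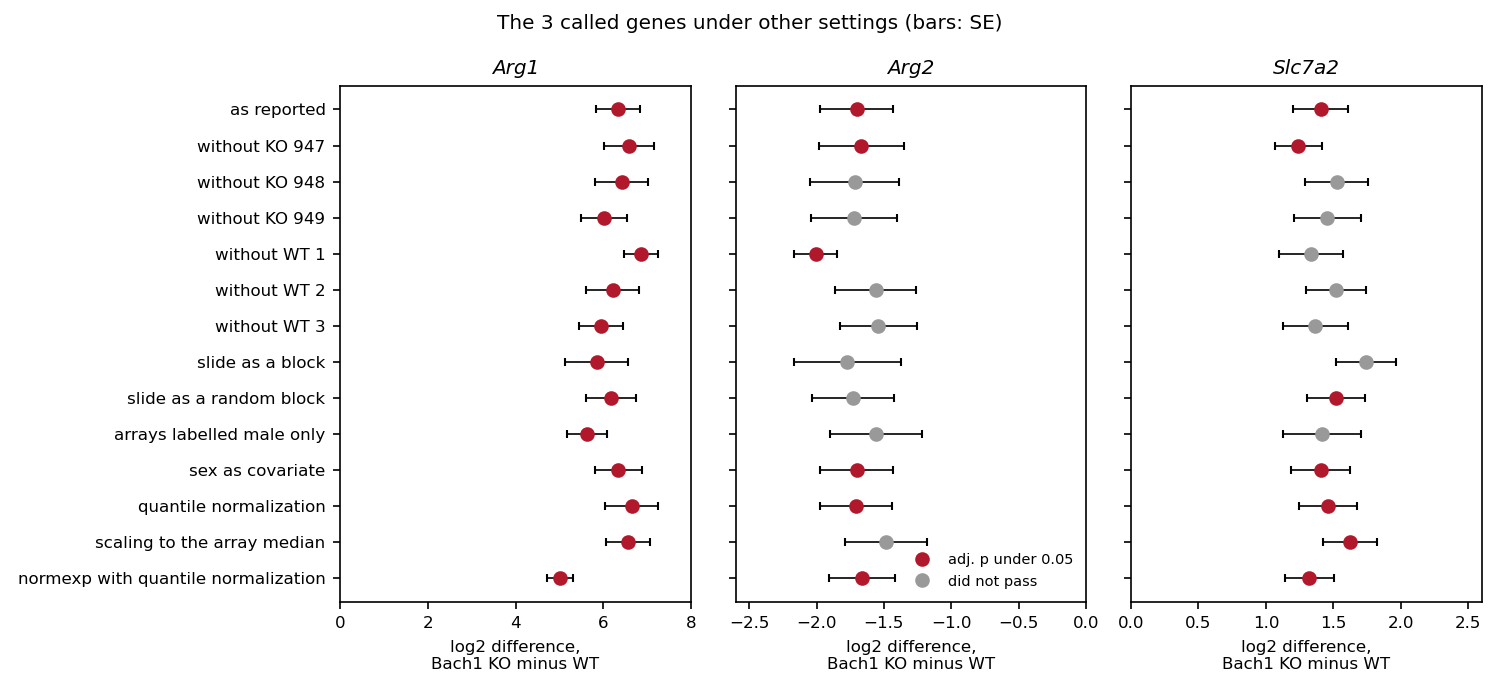
The 3 genes that passed are shown with their log2 difference, Bach1 KO minus WT, under 14 settings, with SE as bars. Red points passed at an adjusted p under 0.05 and grey points did not. All points shown keep their sign. Arg1 passes in these 14 settings, and its call is lost on the slide with both genotypes alone, which is not plotted; Arg2 and Slc7a2 lose the call in several of the plotted settings.

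Other genes around the pathway were described from a list chosen by function. Of 38 listed genes of arginine, proline, creatine and polyamine metabolism, 32 were tested, 2 fell, none rose and 30 did not pass, with a median difference of 0.10 (-0.01 over all genes). The 2 calls stand against 3.41% of all genes. An unadjusted p under 0.05 was found for 6 of the 32 (18.8%), a share near the 20.4% of all genes. Ddah1 encodes an enzyme that breaks down methylated arginines, which inhibit nitric oxide synthases. It read -5.85, -6.58 and -6.34 on KO 947, 948 and 949, and -2.65, -2.93 and -3.70 on WT 1, 2 and 3. The signal was below that limit on every KO array, so the fold is a bound, and Ddah1 was at least 7.27-fold lower in KO (adjusted p = 0.0103 with limma). It passed the filter on dim signal through the WT arrays alone, where it is high, so a difference followed in part from the filter. The bound sets the WT mean against, per KO array, the higher of the measured value and the lowest probe well above background.

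Nags encodes N-acetylglutamate synthase, which makes the activator of the first urea cycle enzyme. It read -2.31, -2.79 and -2.69 on KO 947, 948 and 949, and -1.59, -0.84 and -1.27 on WT 1, 2 and 3, without overlap. It fell by 1.36 ± 0.24 (SE, adjusted p = 0.0384). With slide as a blocking factor neither gene passed (Ddah1 -2.75, adjusted p = 0.0606; Nags -1.07, adjusted p = 0.178). The largest differences among the 30 that did not pass were in Slc18b1, a vesicular polyamine transporter (0.82 ± 0.46, adjusted p = 0.369), and in Gatm and Gamt, the enzymes of creatine synthesis (0.68 ± 0.32, adjusted p = 0.302, and 0.67 ± 0.16, adjusted p = 0.0717). Slc18b1 differed by -0.24 with slide as a blocking factor. Otc, Nos1, Slc22a2 and Slc25a2 did not pass the filter on dim signal, and Amd1 and Pycr1 were not matched to a probe.

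A further list held 24 receptors, transcription factors and cofactor synthesis genes known to act on Arg1 or Nos2 or with their products. All 24 were tested and none passed with limma (2 had an unadjusted p under 0.05, or 8.33%, against 20.4% of all genes), with a median difference of -0.07. The most different were Tlr4, the lipopolysaccharide receptor (0.73 ± 0.20, adjusted p = 0.112), Il10ra, the interleukin-10 receptor chain (-0.63 ± 0.21, adjusted p = 0.162), and Hif1a (0.47 ± 0.22, adjusted p = 0.294). These are transcript levels of the factors, not their activity.

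**Figure D4:**
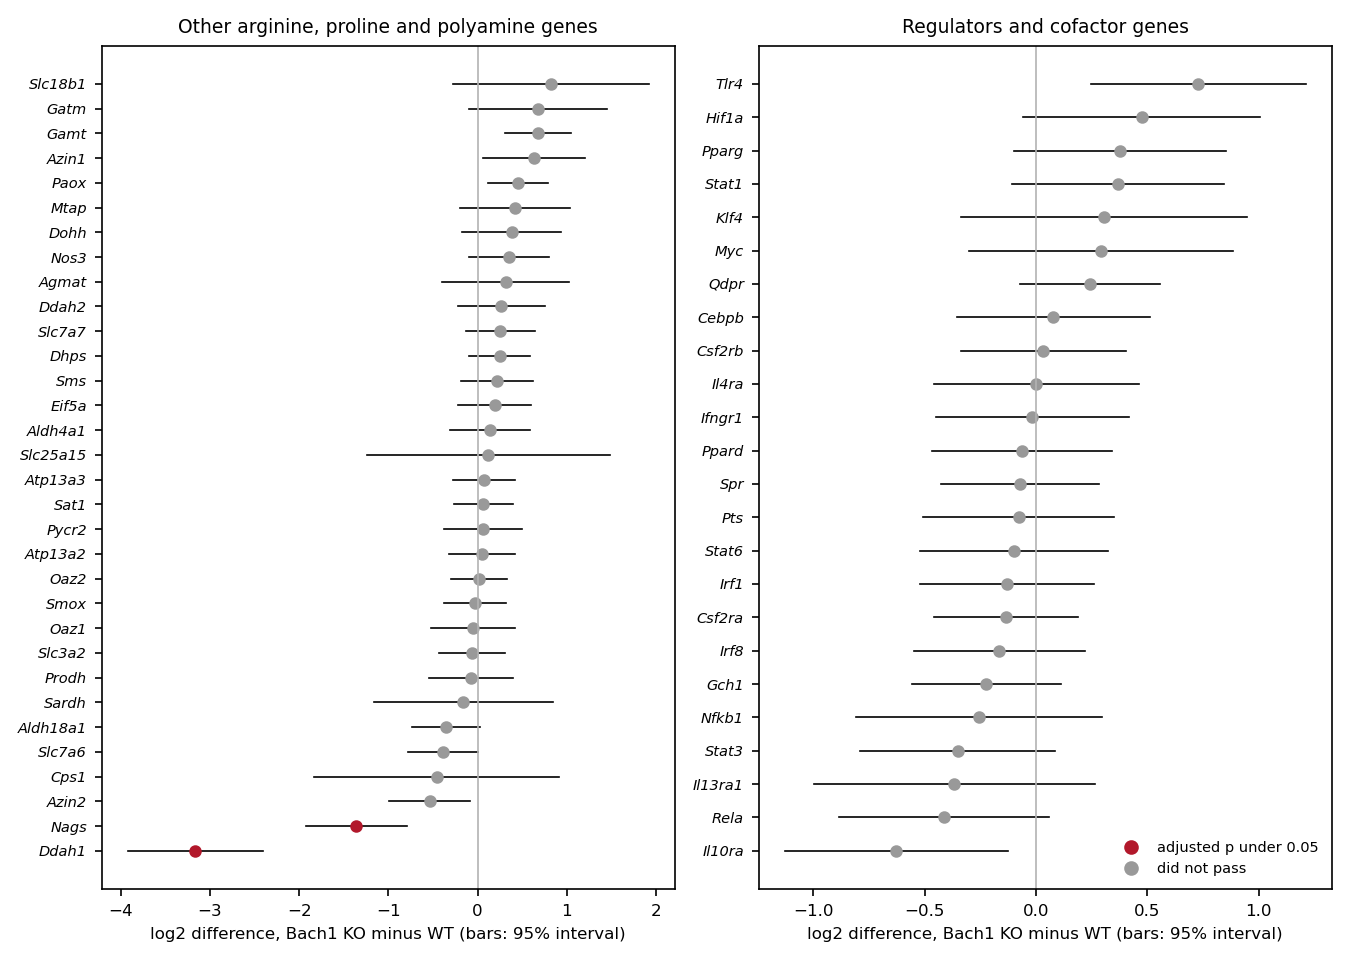
Points give the log2 difference, Bach1 KO minus WT, with its 95% confidence interval as a line, for the 32 tested genes of the wider pathway (left) and the 24 regulators and cofactor genes (right). Ddah1 and Nags, in red, are the genes of both lists that passed at an adjusted p under 0.05; the plotted value of Ddah1 is the measured one, while its fold is a bound.

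Markers of other cell types moved with genotype in the same cultures. None of the 7 tested macrophage markers passed, and their summed signal, on the linear scale relative to the 75th percentile, was 343 to 378 in KO and 324 to 364 in WT. Dendritic cell markers fell in 3 of 7 tested genes, with sums of 58.3 to 66.0 in KO and at least 96.7 in WT. The called genes were Ccr7, Cd83 and Ccl22. Flt3 (-0.72), Zbtb46 (-0.23), Dpp4 (-1.47) and Itgax (-0.31) were also negative and did not pass. Granulocyte markers fell in 1 of 9, S100a9, with sums of 155 to 171 in KO and 214 to 235 in WT. Of the 9 differences, 7 were negative and 2 positive (Mmp8 0.47 and Elane 0.20, neither called). A sum weighs the brightest genes most. Eosinophil, mast cell and basophil markers fell in 3 of 8, with sums of 6.93 to 22.9 in KO and 25.5 to 55.1 in WT. Those called were Mcpt8, Prss34 and Kit, while the eosinophil genes Prg2 and Epx did not pass. Of the 8 differences, 7 were negative and 1 positive (Siglecf 0.47, not called). Stromal markers fell in 3 of 6, with sums of 0.335 to 1.22 in KO and 4.68 to 24.7 in WT. The counts of called markers stand against 2.27% of all genes called lower in KO. Using slide as a blocking factor, 1 stromal marker passed (0.534% of all genes) and 0 of the dendritic, granulocyte, or eosinophil, mast cell and basophil markers did. Mcpt8, Fcer1a and Pdgfra were well above background on 0 of 3 KO arrays, and Xcr1 and Lum on 0 of 6 arrays. Mcpt8 passed the filter on dim signal through the WT arrays alone, where it is high. Its call therefore followed in part from the filter. No tested lymphoid (5), erythroid (2) or hepatocyte (1) marker passed. Of the hepatocyte genes, Alb, Apoa1 and Ttr were not well above background on any of the 6 arrays. Cps1, the other gene of that list, was well above background on all 6, at levels from -5.26 (KO 948) to -3.10 (KO 949). Liver is a tissue known for high Arg1, Ass1 and Asl. The part of the other cell types in the differences of Arg1, Arg2, Slc7a2, Ddah1 and Nags was not tested.

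Among the genes with a profile nearest to that of Arg1 over the 6 arrays were Rnf183 and Arnt2, by the root mean square difference after each gene's mean was removed (1.48 and 1.69 log2 units). Rnf183 read -1.85, -1.88 and -2.14 on KO 947, 948 and 949, and -6.88, -6.47 and -5.36 on WT 1, 2 and 3. Arnt2 read -1.14, -1.51 and -1.57 on the KO arrays in the same order, and -6.70, -4.67 and -4.95 on the WT arrays. They were picked for their likeness to Arg1, which separates the genotypes, so their own separation follows from the choice and no test of it is given. Only 1 WT array was well above background for Rnf183, and 2 for Arnt2, so their WT values near the floor carry little order.

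The authors' deposited table of log2 values holds 3 of the 10 genes, Arg1, Arg2 and Slc7a2. In it Arg1 stood at 2.43, 2.73 and 3.54 on KO 947, 948 and 949, and at -2.43, -3.72 and -4.22 on WT 1, 2 and 3, each probe being centred on its median. The genotypes did not overlap in any of the table's 3215 probes, so a gene's presence there repeats the separation and adds no evidence.

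RefSeq promoter windows (300 bases around a gene's start, GRCm38.p6) were matched for 4 of the 10 genes, Slc7a1, Ass1, Odc1 and Oat, with 2 windows for Slc7a1. They were searched on both strands for TGANTCA, an AP-1-like core, and TGANNNNGC, the core of elements bound by small Maf proteins and their partners, of which Bach1 is one. Of 32851 windows, 7.81% held the first and 41.3% the second. Of the 5 windows of these genes, 1 held both, the upstream window of Slc7a1, at chr5:148399855-148400154 on the minus strand. It is shown because it is the single match, with the matched letters in capitals, although Slc7a1 itself did not pass the test.
Slc7a1: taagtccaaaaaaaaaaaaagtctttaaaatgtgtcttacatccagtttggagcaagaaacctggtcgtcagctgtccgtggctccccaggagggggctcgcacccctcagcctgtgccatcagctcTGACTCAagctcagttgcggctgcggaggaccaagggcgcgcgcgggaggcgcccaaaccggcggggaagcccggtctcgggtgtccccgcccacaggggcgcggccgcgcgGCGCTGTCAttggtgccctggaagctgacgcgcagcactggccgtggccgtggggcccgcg
A match of letters is a description of the window and not a site of binding.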

How the data were processed

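Spot intensity values were extracted by the authors with Agilent Feature Extraction (10.7.3.1 per the file headers, 9.1 per the submitters' processing notes). Per the file headers, these deposited intensities were background-subtracted and detrended within each array and not scaled between arrays. A deposited table of log2 values, centred per probe, had r of at least 0.999 with the matching array. The authors' scaling of it was not given in the sources used here. Probes were named by transcript accession through RefSeq (26413 of 55681 probes); the headers give mm9 as the build of the array design.

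From these, log2 processed signals minus each array's log2 75th percentile were computed, outlier spots (0.196% to 0.386%) were left out and spots of a probe averaged. Probes were kept where 3 or more of 6 arrays were well above background, and the brightest was used per gene (35 genes had a missing value). Genotypes were compared with limma 3.58.1 (lmFit, eBayes) in R 4.3.3, by two-sided tests adjusted by Benjamini-Hochberg across 15736 genes, at a threshold of 0.05. The fit was tested on simulated data. Labels name separate mice, and 3 arrays per genotype limit the precision. Alternatives were other scalings, background correction (normexp, offset 50), filters, slide, sex, probe averaging, outlier spots, variance models, array weights, a threshold of 0.1, the authors' table and leaving out each array.

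Members and lists were chosen with earlier results of these data known. Named were all members, list genes past the threshold, the checks Bach1 and Hmox1, the 3 most different others per list and the 3 profiles nearest to Arg1, of which 1 is not reported here. A planned comparison of protein sequences was not made.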

Additional observations from a re-analysis of the deposited data

How the results depend on the processing

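The directions of Arg1, Arg2 and Slc7a2 held in every alternative run. Arg1 passed in 20 of 21, Arg2 in 12 of 22 and Slc7a2 in 14 of 22. Arg1 was not tested where all 6 arrays had to be well above background. These counts include the authors' table, where 1740 of 1844 genes passed, and the threshold of 0.1, which reuses the main fit. A pass in either adds no evidence. Averaging probes and keeping outlier spots left the differences of these genes unchanged, so the counts overstate stability. Slide and genotype are nearly confounded: with slide as a blocking factor, 84 genes, 1 of the 10 genes and 0 of the wider pathway passed, with Arg2 at -1.77, Slc7a2 at 1.74 and Asl turned to 0.11. On the slide with both genotypes, 24 genes, 0 of the 10 and 0 of the wider pathway passed, with Arg1 at 5.85, Arg2 at -1.77, Slc7a2 at 1.74 and Asl at 0.11; there 1 KO array stands against 3 WT arrays, and it is assumed to vary as they do. With slide as a random block, 255 genes passed, 1 of the wider pathway, and Arg2 (-1.73) did not. Scaling to the array median ended the Arg2 call (-1.49), called 1 regulator, and called 1 gene of the wider pathway higher and 1 lower. Without the filter on dim probes, which tests more genes, 275 passed, 1 of the wider pathway, and Arg2 (-1.70) did not. Requiring all 6 arrays, 1 of the wider pathway passed; with quantile normalization 331 genes and 1 of the wider pathway did. Sex as a covariate left 305 genes and 1 of the wider pathway. The male arrays alone left 182 genes, 1 of the 10 and 1 of the wider pathway, with Arg2 at -1.56 and Slc7a2 at 1.42. A trended, robust variance called 810 genes and a threshold of 0.1 called 1151, each with 1 of the wider pathway higher and 2 lower. Array weights called 3100 genes, 7 of the wider pathway (4 higher and 3 lower), 2 regulators and Asl (-0.48). In the authors' deposited table, which holds only separated probes, 4 of 4 pathway genes and 1 of 2 regulators passed. Leaving out 1 array at a time gave 77 (without WT 1) to 900 (without KO 947) genes, 1 to 3 of the 10 genes, 1 to 3 of the wider pathway, Arg2 at -2.01 to -1.54 and Slc7a2 at 1.24 to 1.52; Oat ran from -0.028 (without KO 947) to 0.33. No paired analysis was possible because WT mice are numbered 1 to 3 and KO mice 947 to 949, so no number is shared. The causes of these changes were not tested. Signal near background limits the WT levels of Arg1 and the KO levels of Ddah1.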
